A study of Rattus norvegicus with 15 samples.

Results

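The genes described here are Runx2, Spp1, Alpl and Bglap, which are widely used as markers of bone-forming cells. They were chosen by Ensembl identifier, ENSRNOG00000020193 for Runx2, ENSRNOG00000043451 for Spp1, ENSRNOG00000013954 for Alpl and ENSRNOG00000019607 for Bglap, and make up 4 of the 34480 rows of a table of RNA sequencing read counts. The symbols came with that choice. Neither the count table nor the reference tables pair rat Ensembl identifiers with symbols, so the pairing could not be checked here. The cells were bone marrow mesenchymal stem cells (BMSCs) of Sprague-Dawley rats, adherent marrow stromal cells that can give rise to bone and fat cells, used at passage 3 to 6 and grown to full confluence. There were 5 groups of 3 libraries: untreated cells (Control), cells in adipogenic differentiation basal medium without aspirin (Adi) or with aspirin (Adi_ASA), and cells in osteogenic differentiation basal medium without aspirin (Ost) or with aspirin (Ost_ASA). Aspirin (acetylsalicylic acid) inhibits the cyclooxygenases, the enzymes that start prostaglandin synthesis. No source used here gives its dose, the composition of the media or how long the cells were cultured. Medium and time in culture therefore cannot be told apart in a comparison with Control. The same holds between the media, as it is not stated that both were cultured for the same time. It is not stated if the replicates of a group came from different rats or only from different dishes, so the p-values speak for the spread among these 15 libraries, part or all of which may be technical.

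Osteoblasts arise from marrow stromal cells under the control of Runx2, a transcription factor of the RUNX family that binds DNA with its partner Cbfb and is required for bone formation. Alpl encodes tissue-nonspecific alkaline phosphatase, an enzyme of the cell surface that removes pyrophosphate, an inhibitor of mineral growth, and is commonly used as an early marker of the lineage. Spp1 encodes osteopontin, a secreted, acidic phosphoprotein of bone matrix that binds integrins and CD44 and is also made by macrophages and other cells. Bglap encodes osteocalcin, a small vitamin K-dependent protein made by mature osteoblasts that binds mineral. Other osteoblast genes, and markers of stromal cells, adipocytes, macrophages, osteoclasts and other cell types that such cultures could hold, had been listed by symbol and could not be matched to rows, so the labelled cell type was not checked against its markers.

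The question the study's title raises is whether aspirin favours the osteoblast lineage over the fat cell lineage. In these libraries the 4 genes did not move together. Spp1 was 51.2-fold higher in osteogenic medium than in untreated cells, and rose 1.71-fold with aspirin in adipogenic medium. No change with aspirin passed the test for Spp1 in osteogenic medium, or for Runx2 or Alpl in either medium. Runx2 was higher than in Control in both media, 1.71-fold in osteogenic and 1.99-fold in adipogenic medium. Alpl was lower in osteogenic medium than in adipogenic medium, at 15 to 38 reads per library throughout. Bglap had 1 to 6 reads per library in every group.

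Because RUNX proteins bind the letters ACCACA or ACCGCA, the 250 bases before the start of each gene were searched for both motifs on both strands. The sequences are those of RefSeq for rat build GRCr8, matched by symbol, which is not the build Rnor_6.0 named in the submitters' processing notes. All 4 genes had an entry, and Runx2 had 2, for separate start sites. Windows with a match are shown. They belong to the regulator Runx2 itself, to Spp1, which rose in both media, and to Bglap, which stayed at a few reads. Whether Runx2 acts through any of these matches was not tested. Capitals mark the match, and each sequence reads 5′ to 3′ on the strand of the gene.
Runx2, chr9:23664808-23665057, plus strand: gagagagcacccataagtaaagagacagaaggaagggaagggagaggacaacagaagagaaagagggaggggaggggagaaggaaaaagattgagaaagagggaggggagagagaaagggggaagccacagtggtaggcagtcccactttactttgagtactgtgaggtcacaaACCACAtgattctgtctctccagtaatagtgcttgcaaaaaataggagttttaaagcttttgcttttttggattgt
Spp1, chr14:5619805-5620054, minus strand: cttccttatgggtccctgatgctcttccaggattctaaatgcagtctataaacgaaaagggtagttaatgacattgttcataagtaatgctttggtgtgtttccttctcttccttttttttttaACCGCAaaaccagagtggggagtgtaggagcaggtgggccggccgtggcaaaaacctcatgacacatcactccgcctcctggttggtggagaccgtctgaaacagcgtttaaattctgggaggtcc
Bglap, chr2:176137319-176137568, minus strand: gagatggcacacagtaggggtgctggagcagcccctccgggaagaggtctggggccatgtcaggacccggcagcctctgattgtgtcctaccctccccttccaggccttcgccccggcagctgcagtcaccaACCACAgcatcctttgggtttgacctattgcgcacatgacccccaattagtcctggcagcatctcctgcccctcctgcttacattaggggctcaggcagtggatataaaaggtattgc

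Counted back from the base before the start (-1), the match was ACCACA at -76 to -71 in this Runx2 window, ACCGCA at -126 to -121 in Spp1 and ACCACA at -118 to -113 in Bglap. Each of these windows held 1 match, on the strand of the gene, so no matches overlapped. The other Runx2 window and the Alpl window held 0 matches. Of all 33469 windows of this length in the table, 14.5% held ACCACA, 5.02% held ACCGCA and 19% held either. A match is a run of letters and not a measured binding site.

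The depth was similar in all libraries, with 18373289 to 22817858 counted reads. Levels are given as CPM, reads per 1000000 counted reads after scaling of the libraries by TMM, a correction for differences in composition, as mean ± SD of 3 libraries. CPM values are not divided by gene length, so levels are compared between groups and not between genes. Overlap of libraries between groups is given as description only, as the share of all genes without overlap was not counted. Tests are edgeR quasi-likelihood tests over all 15543 genes with enough reads, with Benjamini-Hochberg adjusted p-values and a threshold of 0.05. Fold changes are those of that model, and intervals are 95% confidence intervals. In RNA from whole cultures, fewer cells expressing a gene and less RNA per cell cannot be told apart. Runx2, Spp1 and Alpl had enough reads for the test and Bglap did not.

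**Figure D1:**
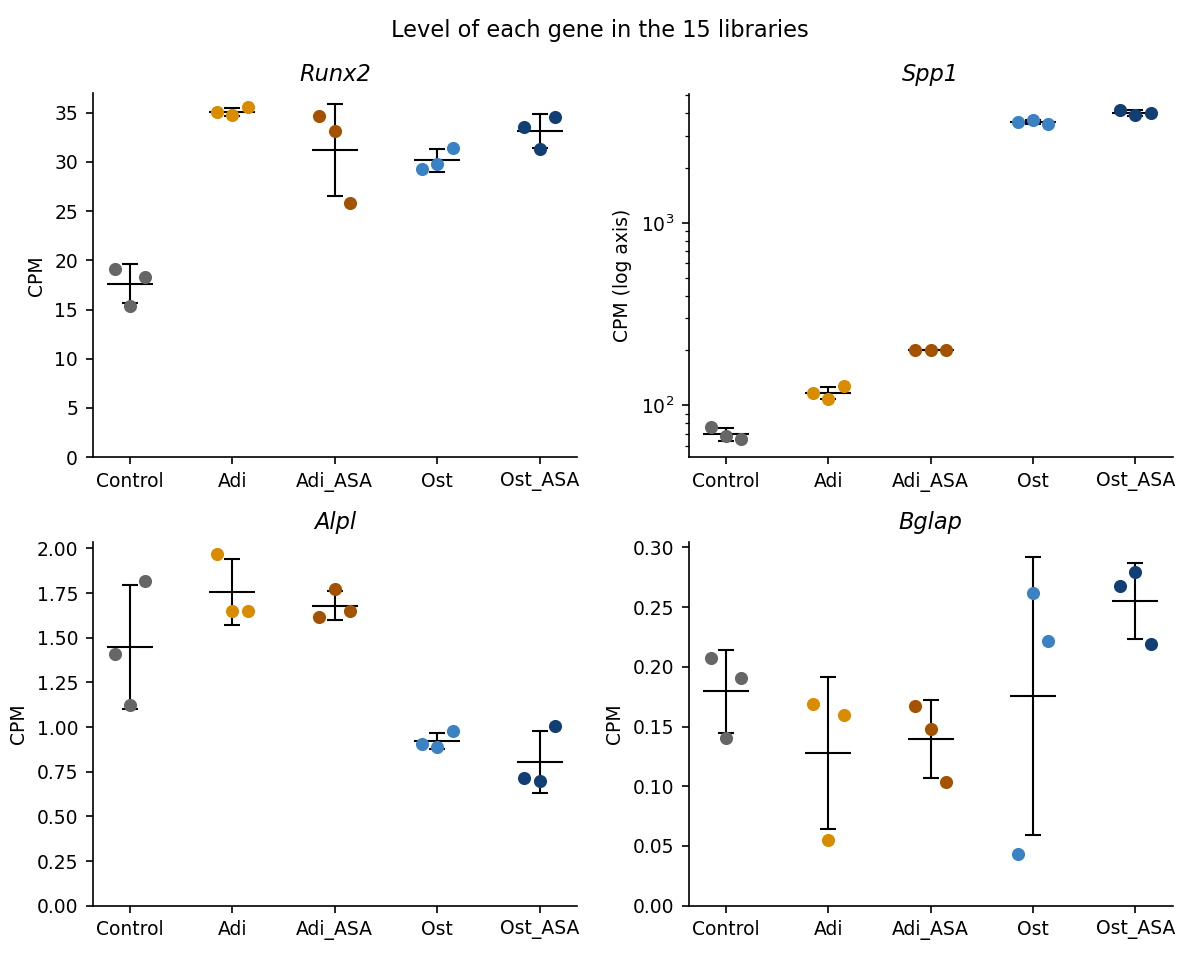
CPM (vertical axes, from 0, except a log axis for Spp1) of the 4 genes in the 5 groups. Points are libraries, horizontal bars the mean and whiskers the SD of 3 libraries. Spp1 stands at 3488 CPM or more in all 6 osteogenic libraries and at 202 CPM or less in all others, while Alpl is lowest in the osteogenic groups and Bglap stays below 0.3 CPM.

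Runx2, the regulator of the lineage, was lowest in untreated cells, with 19.2, 15.4 and 18.3 CPM in Control replicates 1, 2 and 3. In osteogenic medium it was at 29.2, 29.8 and 31.4 CPM, and in adipogenic medium at 35.0, 34.7 and 35.5 CPM. Every library of either medium lay above every Control library. Runx2 rose from 17.6 ± 1.99 CPM in Control to 30.2 ± 1.15 CPM in Ost, a log2 fold change of 0.78 (SE 0.09, edgeR adjusted p = 2.47e-07, n = 3). It was higher still in Adi, at 35.1 ± 0.407 CPM, a log2 fold change against Control of 0.99 (SE 0.09, edgeR adjusted p = 1.96e-08). The rise was 1.71-fold in osteogenic and 1.99-fold in adipogenic medium, and both comparisons use the same Control libraries. The transcription factor regarded as the master regulator of osteoblasts was thus no higher in the osteogenic cultures than in the adipogenic ones.

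Compared directly, Runx2 was lower in Ost than in Adi by a small margin, with no overlap between the libraries. The log2 fold change was -0.22 (interval -0.41 to -0.03, edgeR adjusted p = 0.0414). This call was lost when any of 5 of the 6 libraries was left out. The adjusted p was 0.0803, 0.0712 and 0.0932 without Adi replicates 1, 2 and 3, and 0.116, 0.0994 and 0.0475 without Ost replicates 1, 2 and 3, with log2 fold changes of -0.25 to -0.19. The size of the margin also depended on the scaling, as TMM factors were 0.911 to 0.944 in Adi and 1.03 to 1.04 in Ost. Scaled by library total alone, mean Runx2 was 32.6 CPM in Adi and 31.2 CPM in Ost, against 18.7 CPM in Control. With aspirin in both media, Runx2 did not pass the test between Ost_ASA and Adi_ASA (log2 fold change 0.09, interval -0.10 to 0.28, edgeR adjusted p = 0.417).

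Spp1, the gene of osteopontin, showed the widest range of the 4 genes. Its CPM was 76.1, 68.1 and 65.1 in the Control libraries and 3594, 3649 and 3488 in the Ost libraries. In read counts this was 1363 to 1839 per Control library and 69687 to 83625 per Ost library, and Spp1 alone took up 0.358% of the scaled library in Ost against 0.00698% in Control. Spp1 rose from 69.8 ± 5.70 CPM in Control to 3577 ± 82 CPM in Ost, a 51.2-fold difference (log2 fold change 5.68, SE 0.08, edgeR adjusted p = 1.36e-22). It ranked 152 among the 15543 genes ordered from the largest rise to the largest fall, and 2.35% of genes had a larger change in either direction.

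Spp1 also rose in adipogenic medium, on a much smaller scale. The Adi libraries were at 116, 108 and 127 CPM, all above the Control libraries. The mean was 117 ± 9.33 CPM, 1.68-fold above Control (log2 fold change 0.75, SE 0.07, edgeR adjusted p = 1.1e-08). The direct comparison of the media gave 30.5-fold more Spp1 in Ost than in Adi (log2 fold change 4.93, SE 0.08, edgeR adjusted p = 1.01e-21). With aspirin in both media the difference was 20-fold (Ost_ASA versus Adi_ASA, log2 fold change 4.32, SE 0.07, edgeR adjusted p = 2.87e-21). The lowest osteogenic library, at 3488 CPM, was far above the highest adipogenic library, at 202 CPM.

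Alpl, the alkaline phosphatase gene, went the other way in osteogenic medium. The Control libraries were at 1.41, 1.12 and 1.82 CPM and the Ost libraries at 0.903, 0.890 and 0.976 CPM, from 24 to 38 and 17 to 22 reads. The groups did not overlap. Alpl was lower in Ost (0.923 ± 0.0463 CPM) than in Control (1.45 ± 0.349 CPM), with a log2 fold change of -0.64 (SE 0.25, interval -1.16 to -0.13, edgeR adjusted p = 0.0263). This call was not kept by DESeq2 (log2 fold change -0.64, adjusted p = 0.0691), nor without the filter on low counts (-0.63, edgeR adjusted p = 0.0635). It was also lost without Control replicate 3, where the log2 fold change was -0.45 (edgeR adjusted p = 0.149), and without Ost replicate 1 or 2 (edgeR adjusted p = 0.0639 and 0.0649).

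**Figure D2:**
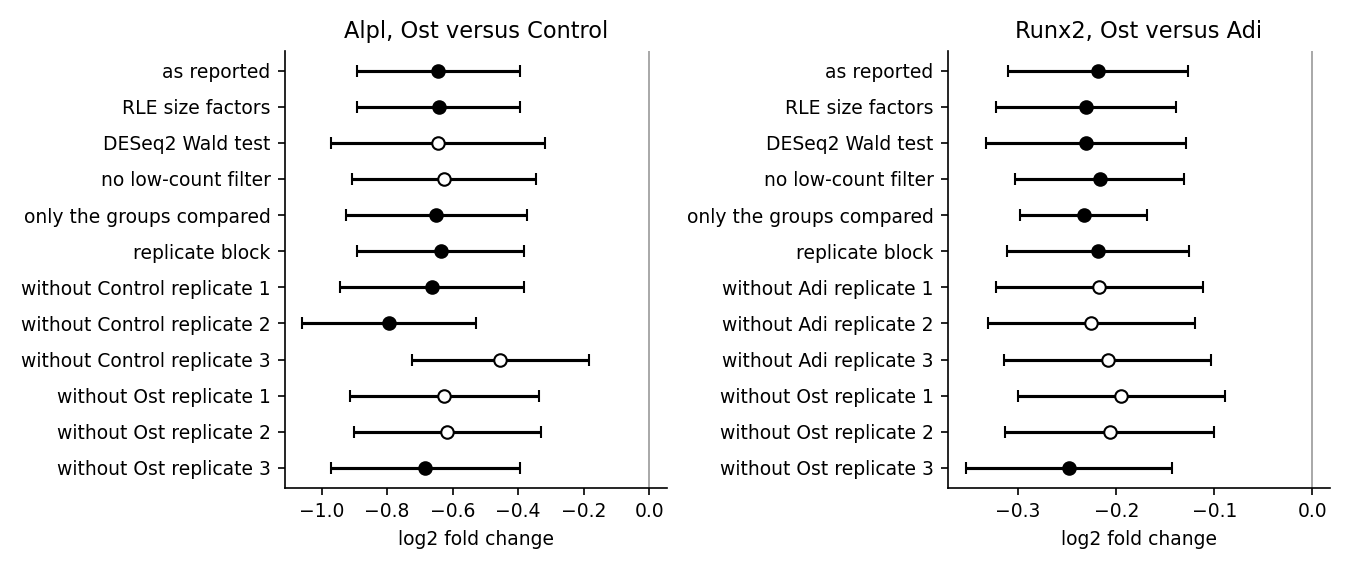
Log2 fold change (horizontal axis, whiskers ± SE) of Alpl in Ost versus Control and of Runx2 in Ost versus Adi, as reported and under each alternative. Filled points have an adjusted p under 0.05; all values lie below 0, and the calls are lost under 5 of the alternatives in each panel.

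The lower level of Alpl in osteogenic medium was clearer against adipogenic medium. The Adi libraries were at 1.97, 1.65 and 1.65 CPM, all above those of Ost. The mean of 1.76 ± 0.184 CPM gave a log2 fold change of -0.92 for Ost versus Adi (SE 0.25, edgeR adjusted p = 0.00263). With aspirin in both media it was -1.05 (Ost_ASA versus Adi_ASA, SE 0.25, edgeR adjusted p = 0.000926). Both of these calls held under all alternatives run. Between Adi and Control the libraries overlapped, and Alpl did not pass the test (log2 fold change 0.28, interval -0.22 to 0.77, edgeR adjusted p = 0.354).

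Bglap, the osteocalcin gene, was read 5, 3 and 4 times in the Control libraries, 3, 1 and 3 times in Adi, 3, 3 and 2 times in Adi_ASA, 1, 5 and 5 times in Ost, and 6, 6 and 5 times in Ost_ASA. Summed over 3 libraries, this was 0.180 CPM in Control with an exact 95% Poisson interval of 0.0932 to 0.315, and 0.169 CPM in Ost with an interval of 0.0846 to 0.303. The Ost and Control intervals lie nearly on top of each other. The sum in Ost_ASA, 17 reads, was the highest, at 0.255 CPM (0.148 to 0.408), and that in Adi, 7 reads, the lowest, at 0.128 CPM (0.0514 to 0.263). These 2 intervals overlap as well. The intervals cover counting error only.

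Bglap was left out of the main test for its low counts. Without that filter, Ost versus Control gave a log2 fold change of -0.05 with an interval of -1.45 to 1.35 (edgeR adjusted p = 1). Ost_ASA versus Ost gave 0.55 with an interval of -0.79 to 1.90 (edgeR adjusted p = 0.847). At this depth a change of Bglap of 2-fold in either direction thus lies within the interval for Ost versus Control, whereas one as large as that of Spp1 lies outside it. For Ost_ASA versus Ost, a 2-fold rise lies within the interval and a 2-fold fall outside it.

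Over the 3 genes tested, 2 were higher and 1 was lower in Ost than in Control, where 68.9% of all genes tested changed, 34.2% upward and 34.8% downward. In Adi versus Control, 2 were higher and 0 lower, with 48.9% of all genes changed, 24.5% upward and 24.4% downward. In Ost versus Adi, 1 was higher and 2 were lower, with 66.5% of all genes changed, 33.5% upward and 33% downward. In Ost_ASA versus Adi_ASA, 1 was higher and 1 lower, with 65.7% of all genes changed, 32.8% upward and 32.9% downward. With such a share of all genes changing between media, the number of calls among these genes is not in itself a result about them, and the sizes and directions carry the description. The median log2 fold change over all genes tested was -0.02 in Ost versus Control and -0.01 in Adi versus Control.

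**Figure D3:**
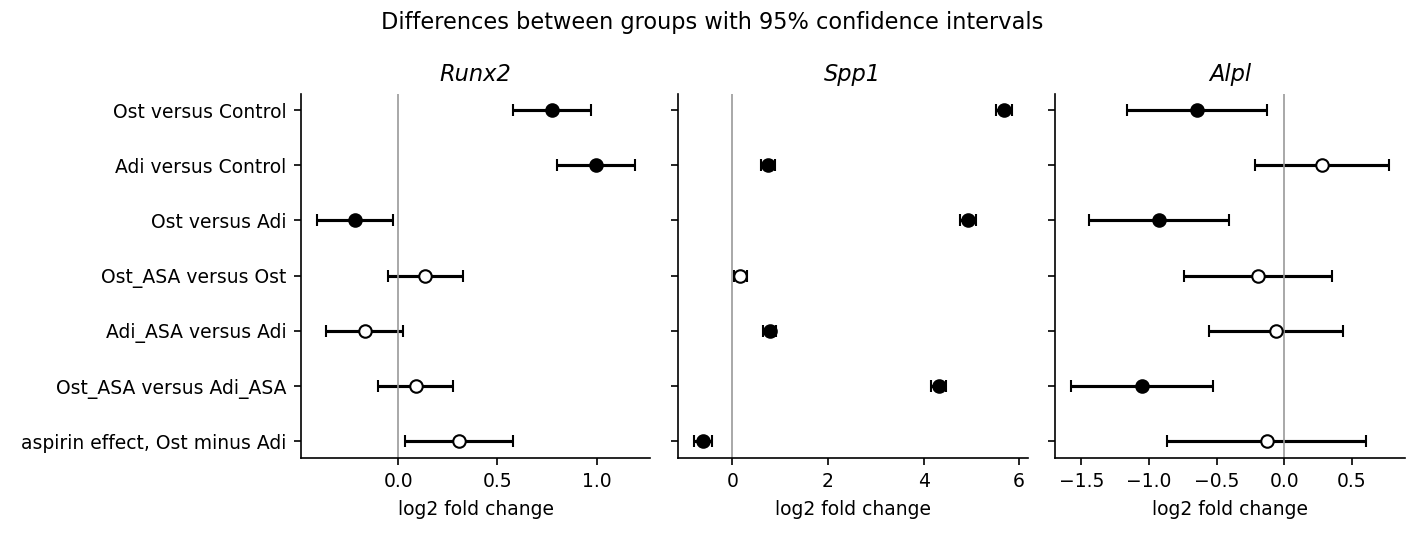
Log2 fold change (horizontal axes, scaled separately) of Runx2, Spp1 and Alpl in the 7 comparisons, with 95% confidence intervals as whiskers; filled points have an adjusted p under 0.05. Spp1 lies above 4 on the log2 scale in all 3 comparisons of osteogenic medium with another culture, and Alpl lies below 0 in each of them.

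Aspirin was then compared with its absence within each medium. In adipogenic medium, 4.34% of all genes tested changed with aspirin, 2.49% upward and 1.85% downward. That share stands for 675 genes, and the number was 398 and 410 without Adi replicates 2 and 3, and 424, 417 and 284 without Adi_ASA replicates 1, 2 and 3. Spp1, 1 of the 3 members tested, was among those that rose. The Adi_ASA libraries were at 200 (replicate 1), 201 and 202 CPM, against 108 to 127 CPM in Adi, so that each library with aspirin held 171% to 172% of the Adi mean. Spp1 rose from 117 ± 9.33 to 201 ± 0.882 CPM, a 1.71-fold change (log2 fold change 0.78, SE 0.07, edgeR adjusted p = 6.33e-07, n = 3). The log2 fold change stayed at 0.72 to 0.84 with any of the 6 libraries left out (edgeR adjusted p = 1e-06 to 1.39e-05). It ranked 414 among 15543 genes ordered from the largest rise to the largest fall. With aspirin, Spp1 in adipogenic medium thus lay further from Control, in the direction of its difference from Control in both media. The Adi_ASA mean was still far below the Ost mean of 3577 CPM.

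In osteogenic medium, where 3.63% of all genes tested changed with aspirin, 2.34% upward and 1.29% downward, Spp1 did not pass the test, and neither did Runx2 or Alpl. The share stands for 564 genes, and the number was 335 and 348 without Ost replicates 1 and 2 and 357 without Ost_ASA replicate 3. The Ost_ASA libraries were at 4156, 3887 and 3991 CPM, all above the 3 Ost libraries, and at 109% to 116% of their mean. The log2 fold change was 0.17 (interval 0.03 to 0.30, unadjusted p = 0.0188, edgeR adjusted p = 0.205), from 3577 ± 82 to 4011 ± 135 CPM. The relative effect of aspirin on Spp1 differed between the media. The aspirin effect in Ost minus that in Adi was -0.61 on the log2 scale (SE 0.09, edgeR adjusted p = 0.000726), a test passed by 2.83% of all genes, 1.63% with a positive and 1.2% with a negative difference (440 genes, and 288 without Adi_ASA replicate 3). On the CPM scale the order is the reverse, since the difference of means was 434 CPM in osteogenic and 83.6 CPM in adipogenic medium.

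Runx2 and Alpl passed no test of aspirin. Runx2 was at 34.6, 33.2 and 25.9 CPM in Adi_ASA, all below the Adi libraries, and replicate 3 stood apart from the others. The log2 fold change was -0.17 (interval -0.36 to 0.02, edgeR adjusted p = 0.366), and without that library -0.05. In osteogenic medium Runx2 was at 33.6, 31.3 and 34.6 CPM with aspirin, overlapping the Ost libraries (log2 fold change 0.14, interval -0.05 to 0.33, edgeR adjusted p = 0.543). The difference between these effects, Ost minus Adi, was 0.31 (interval 0.04 to 0.58, unadjusted p = 0.0284, edgeR adjusted p = 0.281), and 0.19 without Adi_ASA replicate 3.

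For Alpl, the libraries with and without aspirin overlapped in both media. Adi_ASA stood at 1.62, 1.77 and 1.65 CPM and gave a log2 fold change of -0.06 against Adi (interval -0.56 to 0.43, edgeR adjusted p = 0.937). Ost_ASA stood at 0.714, 0.698 and 1.01 CPM and gave -0.19 against Ost (interval -0.74 to 0.35, edgeR adjusted p = 0.819). These intervals reach well to both sides of 0, so a modest effect of aspirin on Alpl was not detectable at 15 to 36 reads per library. The Bglap libraries with and without aspirin overlapped likewise in each medium. In Ost_ASA they lay above all Adi_ASA libraries, a difference of 17 against 8 reads (log2 fold change 0.85 without the filter, interval -0.56 to 2.27, edgeR adjusted p = 0.364).

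**Figure D4:**
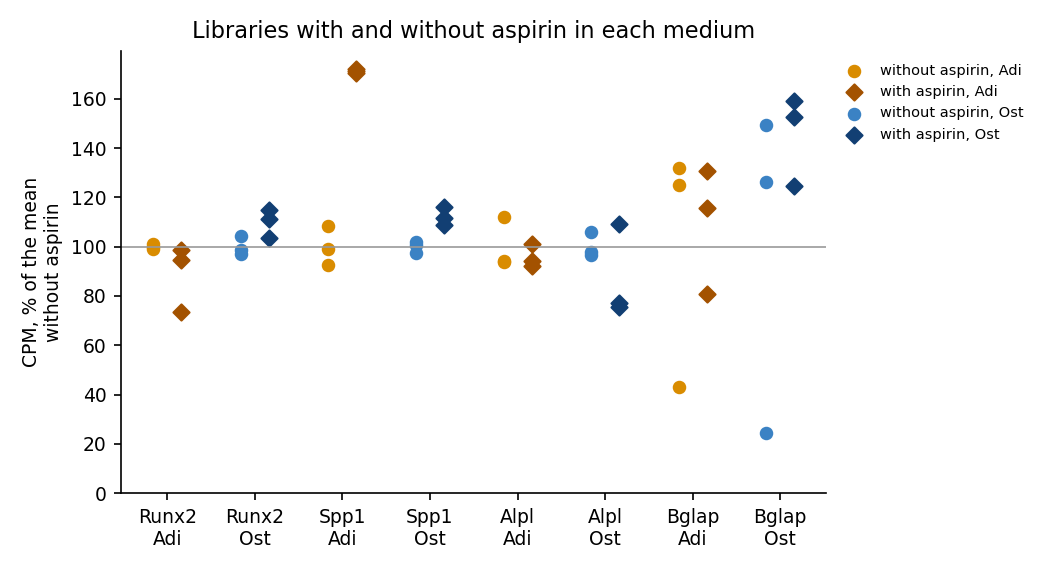
CPM of each library as a percentage of the mean without aspirin in the same medium (vertical axis, from 0), for the 4 genes in adipogenic (Adi) and osteogenic (Ost) medium; circles are libraries without and diamonds libraries with aspirin. The 3 Adi_ASA diamonds of Spp1 lie on each other at 171% to 172%, and those of Ost_ASA at 109% to 116%.

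Ordered by mean level, Spp1 ran from Control through Adi, Adi_ASA and Ost to Ost_ASA, with no overlap of libraries between any neighbours, although the last step did not pass the test. The share of all genes with such an order was not counted. Runx2 ran from Control through Ost, Adi_ASA and Ost_ASA to Adi. That order was the same with RLE size factors, another correction for composition, but not without such a correction. By library total alone, Ost_ASA was highest, at 33.7 CPM against 32.6 CPM in Adi. The step from Control to Ost exceeded the spread, the Ost and Adi_ASA libraries and the Adi_ASA and Ost_ASA libraries overlapped, and the highest Ost_ASA library was only 0.133 CPM below the lowest Adi library. Alpl ran from Ost_ASA through Ost, Control and Adi_ASA to Adi, and only Ost and Control were neighbours without overlap. Bglap ran from Adi through Adi_ASA, Ost and Control to Ost_ASA, and only Control and Ost_ASA were neighbours without overlap, by 0.0119 CPM, which is less than the value of 1 read.

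The spread between libraries was set beside the SD that read counting alone would give. For Bglap and Alpl the SD was below the counting SD in 4 of 5 groups each, so the libraries lay no further apart than the number of reads alone would put them in those groups. The SD of Alpl in Ost, 0.0463 CPM, was below the counting SD of 0.207 CPM, and with 3 libraries such a narrow spread says little about the true one. For Spp1 the SD exceeded the counting SD in 4 of the 5 groups, up to 10.1-fold in Ost_ASA. The exception was Adi_ASA, where the SD of 0.882 CPM was below the counting SD of 3.23 CPM. For Runx2 the SD was below the counting SD in 2 of 5 groups. In Adi it was 0.407 CPM against a counting SD of 1.39 CPM. The edgeR model does not use these SDs on their own, but a spread estimated over all groups.

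**Figure D5:**
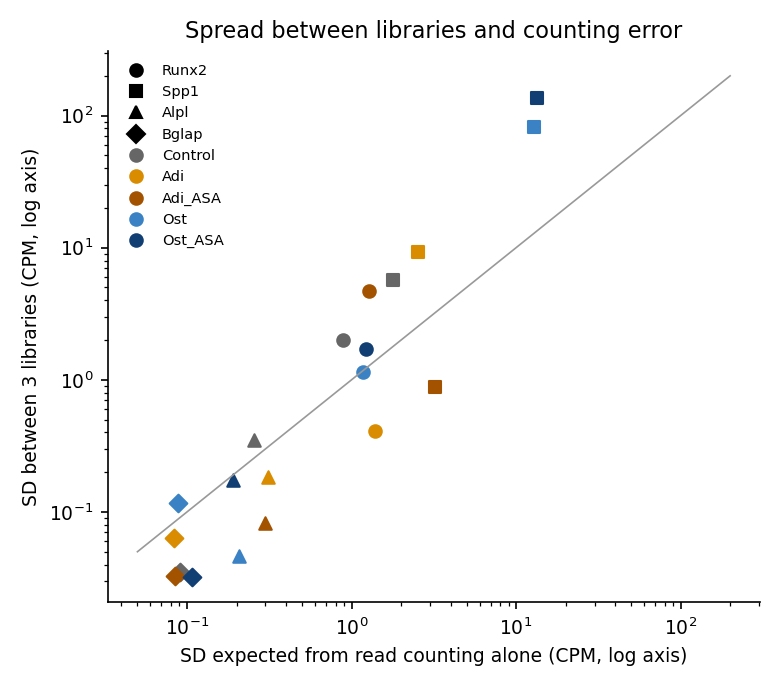
SD between 3 libraries (vertical log axis, CPM) against the SD expected from read counting alone (horizontal log axis, CPM) for 4 genes (symbols) in 5 groups (colours); the line marks equality. Most Bglap and Alpl points lie below the line, and the Spp1 points of Ost and Ost_ASA lie highest above it.

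The genes with the most similar pattern were sought by Pearson correlation of log2 CPM over the 15 libraries, which fall into 5 groups, so that r mainly reflects the group means. They are given by identifier, as no symbol was available. For Spp1 this was ENSRNOG00000043503 (r = 0.997), at 41.8 CPM in Control, 47.5 in Adi, 63.2 in Adi_ASA, 276 in Ost and 273 in Ost_ASA. For Runx2 it was ENSRNOG00000057834 (r = 0.981), with means of 15.9, 34.3, 28.9, 28 and 32.7 CPM in the same order. For Alpl it was ENSRNOG00000011445 (r = 0.96), with 3.78, 6.63, 5.82, 1.36 and 1.36 CPM. Each is the best match among 15543 genes searched, and no test goes with it.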

How the data were processed

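The deposited file was 1 table of raw read counts for each gene in each library. The submitters' processing notes name HISAT2 (2.0.4), HTSeq (0.9.1), DESeq (1.18.0) and the build Rnor_6.0; no source used here gives the role or settings of each, strand included. Columns matched sample titles, which gave group and replicate. Of 34480 rows, 32883 had Ensembl identifiers. The members, gene lists and tests were chosen with earlier results of these data known. The genes to name were the 4 members and, for each one tested, the identifier with the most similar pattern.

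The test was edgeR's (4.0.16, R 4.3.3). Its filterByExpr (minimum count 10) kept 15543 genes, which held at least 99.9% of each library's reads, followed by TMM scaling and 1 quasi-likelihood model of 5 group means over all 15 libraries, with 7 contrasts. The SE is the log2 fold change divided by the square root of F. The filter removed Bglap. Alternatives were RLE factors, DESeq2 1.42.0, no filter, a fit of the compared groups alone, a replicate block and leaving out each library. The model was checked on simulated data in which 200 genes were changed. Far more genes differed between the media here, so that check does not cover such a setting. A chi-square statistic put every pair of replicates further apart than counting error alone (5.41 to 13.5 per degree of freedom). It cannot tell separate rats from separate dishes. Each library counted once in the model.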

Additional observations from a re-analysis of the deposited data

Results flagged for a closer look

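The effect of aspirin on Spp1 differed between the media by a test of the difference itself. The aspirin effect in Ost minus that in Adi was -0.61 on the log2 scale (edgeR adjusted p = 0.000726). It ranged from -0.68 to -0.56 when each of the 12 libraries was left out in turn, with an edgeR adjusted p of 0.00032 to 0.00298. All 3 libraries with aspirin lay above all 3 without it in both media. This separation is description only, since how many other genes show it was not counted. Taken alone, the rise of Spp1 in osteogenic medium was small, at 0.17 on the log2 scale, and was not called (edgeR adjusted p = 0.205).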

How the results depend on the processing

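All 83 alternative values for Spp1 kept their direction and side of the threshold, as did 77 of 83 for Runx2 and 77 of 83 for Alpl. Alpl in Ost versus Control lost its call with DESeq2 (log2 fold change -0.64) and without the low-count filter (-0.63), and ranged from -0.79 to -0.45 with a library left out. Runx2 in Ost versus Adi ranged from -0.25 to -0.19 with a library left out, and lost its call for 5 of the 6 libraries. Runx2 in Ost_ASA versus Adi_ASA, not called, ranged from -0.0315 (without Adi_ASA replicate 3) to 0.17, and Alpl in Adi_ASA versus Adi, not called, from -0.10 to 0.0286 (without Adi replicate 1). Leaving out a library leaves fewer samples; no other cause was tested. The number of genes called with aspirin was 335 to 536 in Ost and 284 to 529 in Adi with a library left out, against 564 and 675, and 288 to 427 for the difference of the effects, against 440. Scaled by library total alone, Runx2 was at 32.6 CPM in Adi, 31.2 CPM in Ost and 33.7 CPM in Ost_ASA, so Adi was no longer highest. On the same scaling, Spp1 was at 194 CPM in Adi_ASA and at 3696 CPM in Ost.

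Same-numbered libraries did not deviate together (correlation -0.07 to 0.04 over 30 pairs), and the numbers are treated as names only. A replicate block changed no call for the members, with Spp1 in Adi_ASA versus Adi at 0.78, and gave 572 called genes there against 675. Depth limits Alpl and, most of all, Bglap.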
